A study of Mus musculus with 6 samples.

Results

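The 40 genes described here encode proteins that enter, run and finish mitosis: CDK1 with its cyclins and activating phosphatases, other mitotic kinases, the spindle checkpoint, the kinesin motors, centromere and kinetochore proteins, spindle assembly factors and the cytokinesis machinery. They were taken by symbol from a list of mitosis and spindle genes by a rule that uses no measured value, although the list was drawn up with earlier results of these data known, and all 40 were found among the 23850 gene entries of each library and among the 10096 genes tested. RNA came from iGCB cells (germinal centre B cells generated in vitro) of wild-type C57BL/6J mice. The DMSO group (3 libraries) received the solvent and the CHIR99021 group (3 libraries) received a small-molecule inhibitor of the kinase GSK3. The labels give 3 uM for CHIR99021 and print the same figure beside DMSO.

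Both groups started as naive follicular B cells that were kept for 4 days on feeder cells expressing CD40L with IL-4 at 1 ng/ml, and the 36 h of treatment followed, with IL-21 (10 ng/ml) and again CD40L feeder cells. These are cells made in culture, not germinal centre B cells sorted from an animal, and the labels say that the treated cells were purified without giving the method. The submitters describe biological triplicates. Whether each library came from a different mouse is not given, so the p-values measure the spread between these samples.

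Mitosis starts when CDK1, bound to a cyclin, is switched on by CDC25 phosphatases, and it ends when the anaphase promoting complex marks cyclins and the inhibitor of separase for destruction. In between, microtubule motors of the kinesin family build the spindle, kinetochores attach the chromosomes to it, and the checkpoint holds anaphase until attachment is complete. Most of these genes are transcribed in the G2 and M phases of the cell cycle, and germinal centre B cells are known for rapid division. In RNA from a whole culture, fewer cells in G2 or M and less RNA per such cell cannot be told apart.

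Many promoters of such genes carry a CCAAT box, the site of NF-Y, followed by a cell cycle homology region, to which the MuvB complexes with their repressor or activator partners bind. Both were searched on both strands, the box as CCAAT and the homology region as TTTGAA or TTCGAA, in RefSeq promoter windows from 250 bases before to 50 after the gene's start (build GRCm38.p6). Of the 40 genes, 33 were matched, with 36 windows (Bub3, Ect2 and Prc1 have overlapping ones), and Ccna2, Cdc25c, Incenp, Kif20a, Aurkb, Tpx2 and Stmn1 were not. Stretches from 7 genes are printed because they hold both elements at close range: kinase, checkpoint, ubiquitin ligase and kinesin genes, and Cdc25b, the single gene called higher. They read 5′ to 3′ on the gene's own strand, capitals mark the CCAAT box (ATTGG when on the other strand) and the homology region (TTCAAA when on the other strand), and positions count from the first transcribed base.
Cdk1, chr10:69352916-69352966, minus strand, bases -54 to -4: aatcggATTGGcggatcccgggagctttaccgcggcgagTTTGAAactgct
Cdc20, chr4:118437350-118437402, minus strand, bases -59 to -7: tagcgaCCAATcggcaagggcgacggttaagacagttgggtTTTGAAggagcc
Bub3, chr7:131560290-131560338, plus strand, bases -80 to -32: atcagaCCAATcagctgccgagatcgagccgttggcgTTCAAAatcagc
Ube2c, chr2:164769866-164769911, plus strand, bases -63 to -18: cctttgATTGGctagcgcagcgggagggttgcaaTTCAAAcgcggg
Kif11, chr19:37376331-37376374, plus strand, bases -51 to -8: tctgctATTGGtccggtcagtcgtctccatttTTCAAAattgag
Kif22, chr7:127042426-127042480, minus strand, bases -60 to -6: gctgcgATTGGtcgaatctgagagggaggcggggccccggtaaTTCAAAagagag
Cdc25b, chr2:131186914-131186966, plus strand, bases -34 to 19: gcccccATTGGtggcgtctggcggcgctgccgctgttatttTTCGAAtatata
In these stretches the homology region starts 33 bases after the start of the CCAAT box in Cdk1, 35 in Cdc20, 31 in Bub3, 28 in Ube2c, 26 in Kif11, 37 in Kif22 and 35 in Cdc25b.

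A CCAAT box was present in 31 of the 36 windows (86.1%), against 37.4% of the 32851 windows of the RefSeq table. The homology region was also in 31 of 36 windows (86.1%), against 19.2% of all windows. Both were found in 28 of 36 (77.8%), against 7.52%, and a homology region that started 20 to 45 bases after a CCAAT box was found in 20 of 36 (55.6%), against 1.11%. That range of distances was chosen after the sequences were seen. Counted once per gene, the close pair was in 17 of the 33 genes, since Bub3, Ect2 and Prc1 each hold it in overlapping windows. Promoter windows of Birc5 and Mad2l1 held neither element. The RefSeq start lay 247 bases from the edge of the deposited gene span for Mad2l1 and 3852 bases for Kif2c, and 200 bases or less for the others, so the windows of these 2 may not cover the start that the deposited values refer to. An E2F-like motif was searched as TTCCCGC or GGCGGGAA, which overlap, since the second holds the reverse complement of the first. It was in 0 of 36 windows, against 4.60% of all, which says only that these letters are not in these windows. The forkhead motif TAAACA was in 4 of 36 (11.1%), against 13.4%. Windows with the close pair were as frequent among members that fell with CHIR99021 (6 of 11, 54.5%) as among members that did not pass the test (13 of 24, 54.2%). Prc1 in the first count, and Bub3 and Ect2 in the second, enter with both of their overlapping windows. Kif11 and Kif22, which fell, and Cdk1, which did not pass the test, all hold the pair.

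**Figure D1:**
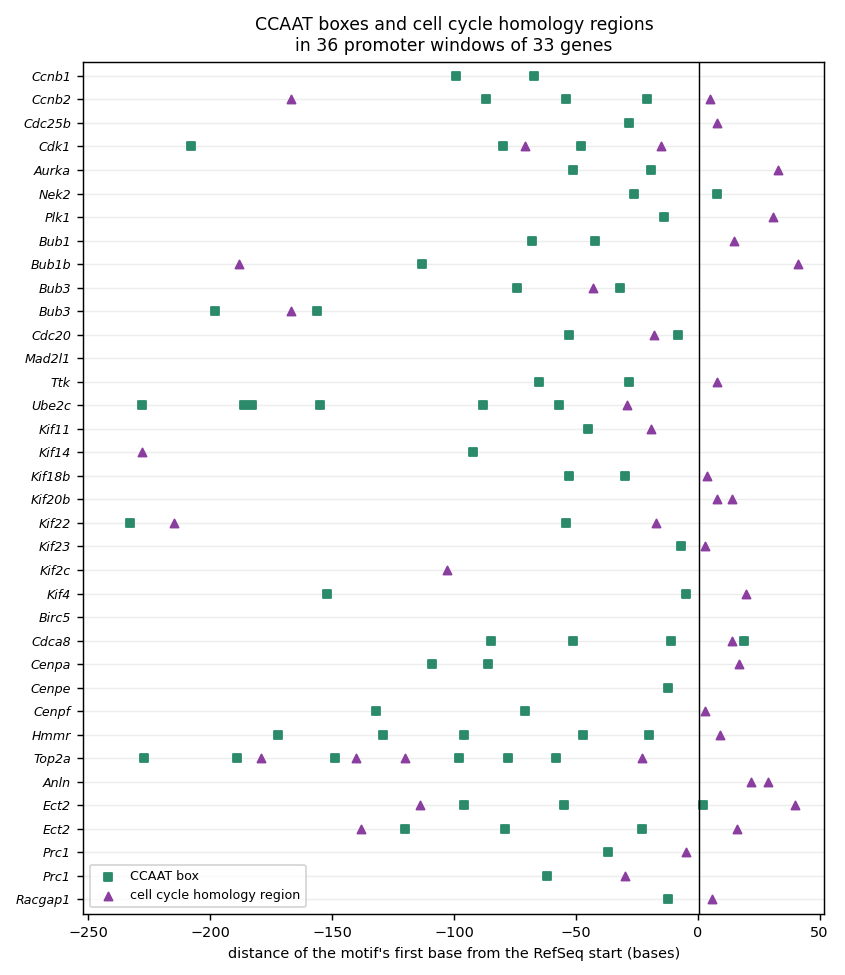
Positions of CCAAT boxes (squares) and cell cycle homology regions (triangles) in the 36 RefSeq promoter windows of 33 mitosis genes, as the distance in bases of each motif's first base from the annotated start. A CCAAT box with a homology region starting 20 to 45 bases after it recurs in 20 of the 36 windows.

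With CHIR99021, 13 of the 40 genes fell, 1 rose (Cdc25b) and 26 did not pass the test. Levels are FPKM (fragments scaled by transcript length and library total), and a gene was said to rise or fall where limma's test on log2(FPKM + 1), adjusted over all 10096 genes, gave an adjusted p under 0.05. Among all tested genes, 21.4% passed this threshold, 13.3% lower and 8.13% higher, so lower calls made up a larger share of the mitosis genes and higher calls a smaller one. The scaling of the libraries shifted the balance of calls over all tested genes, from 821 higher and 1343 lower as deposited to 1115 and 1174 with upper-quartile scaling and 1232 and 1174 with quantile normalization, while the 40 genes gave 1 higher and 7 lower, and 1 higher and 11 lower, under these. In place of 14, the number of the 40 that passed was 6 without DMSO replicate 1, 12 without DMSO replicate 2, 6 without DMSO replicate 3, and 9, 8 and 5 without CHIR99021 replicates 1, 2 and 3, with Cdc25b higher and all others lower each time. In these 6 fits, in that order, the lower calls were 12.5%, 27.5%, 12.5%, 20%, 17.5% and 10% of the 40 genes, against 9.86%, 12.9%, 8.02%, 10.3%, 9.81% and 7.33% of all tested genes, so the share of the 40 genes came much nearer to that of all genes without DMSO replicate 1 or 3 or CHIR99021 replicate 3. The median log2 change of the 40 genes was -0.21, against -0.04 over all tested genes, and 36 of 40 changes were below 0, against 54.8% of all genes. Values of the DMSO and CHIR99021 libraries did not overlap for 21 genes, 20 of them lower with CHIR99021 and 1 higher, against 23.1% lower and 17.0% higher over all tested genes. Mean levels over the 6 libraries ran from 5.01 FPKM for Kif14 to 210.7 FPKM for Ube2c with a median of 44.8 FPKM, above the 11.5 FPKM of the median tested gene for 34 of the 40. The FPKM of the 40 genes added up to 2967, 2631 and 2648 in DMSO replicates 1, 2 and 3, and to 2394, 2159 and 2250 in CHIR99021 replicates 1, 2 and 3, so the groups did not overlap in this sum.

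Equally numbered DMSO and CHIR99021 libraries deviated together from their group means. With the replicate number as a block in the same test, 22 of the 40 genes passed, 21 lower and 1 higher, beside 42.8% of all tested genes (24.4% lower, 18.4% higher). By role, lower calls with the block were 33.3% of the CDK1 group, 25% of the other kinases and 42.9% of the checkpoint and anaphase genes. They were 66.7% of the kinesins, 66.7% of the centromere group, 75% of the spindle assembly group and 50% of the cytokinesis genes. These groups hold 4 to 9 genes each. The 8 that passed with the block but not in the test without it were Ccna2, Bub3, Ube2c, Kif18b, Incenp, Birc5, Cdca8 and Top2a, all lower with CHIR99021. Of these, Ccna2 and Top2a did not pass when the block was combined with quantile normalization (adjusted p = 0.1098 and 0.191), and without the block Bub3 passed with quantile normalization (0.0491), Kif18b with a minimum mean of 5 FPKM (0.0456) and Cdca8 with that minimum (0.0470), with no limit on level (0.0431) or with a pseudocount of 5 FPKM (0.0479). Taken pair by pair, 33, 35 and 32 of the 40 genes were lower with CHIR99021 in pairs 1, 2 and 3, with median log2 differences of -0.23, -0.25 and -0.20. Lower in all 3 pairs were 28 of the 40, against 37.3% of all tested genes.

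**Figure D2:**
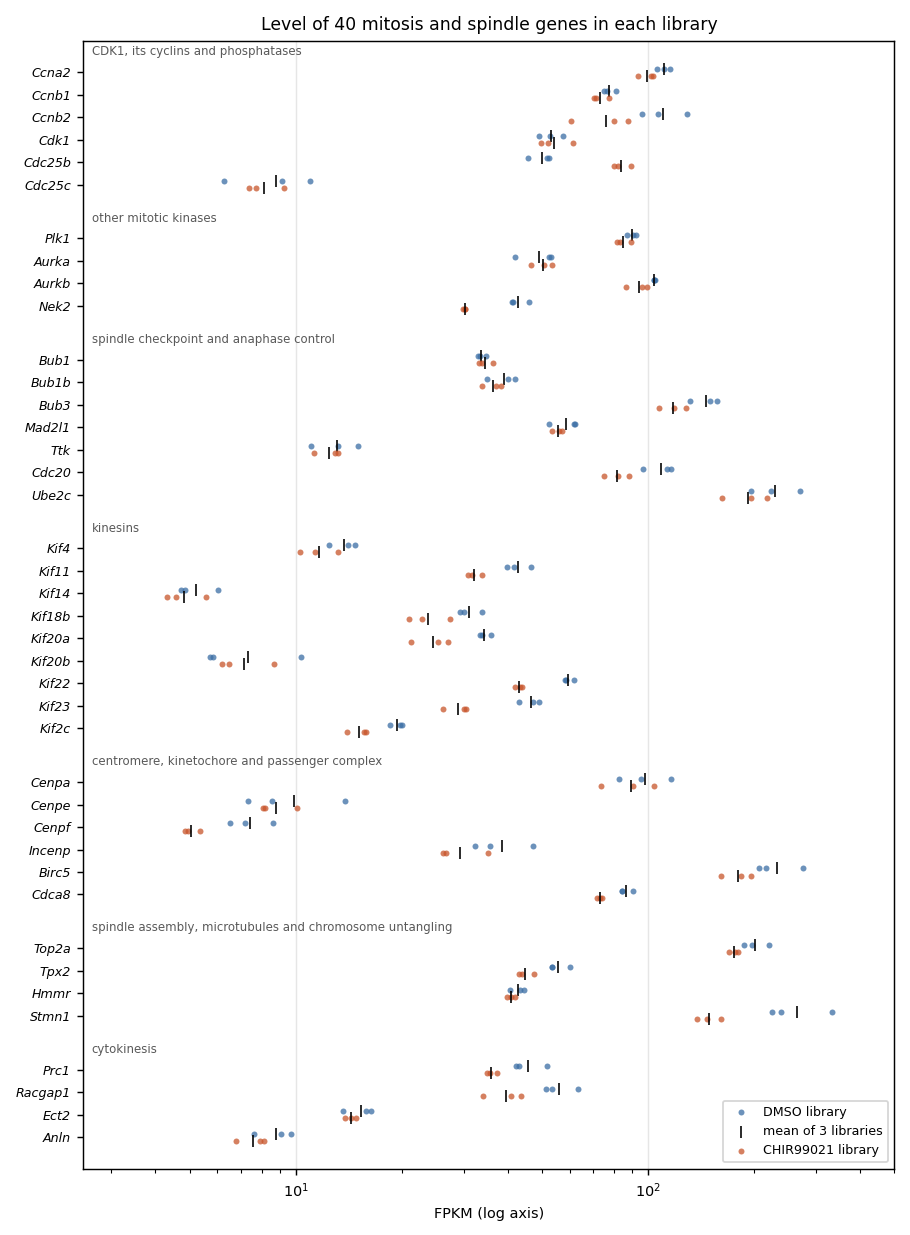
FPKM (log axis) of the 40 genes in each DMSO library (blue) and CHIR99021 library (red), by role, with a bar at each group's mean of 3 libraries. Cdc25b has its CHIR99021 points to the right of its DMSO points, and Kif23, Nek2, Kif22 and Stmn1 have theirs clearly to the left.

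Among CDK1 and the proteins that switch it on, 1 of the 6 genes rose, 1 fell and 4 did not pass. The median log2 change was -0.09. Each call was 16.7% of the group, against 13.3% lower and 8.13% higher of all tested genes. With 1 gene in each direction this is not a result about the group. Cdc25b (chr2:131186948-131198511 on mm10), the phosphatase that removes the inhibitory phosphates from CDK1 at the start of mitosis, was measured at 45.8, 52.2 and 51.6 FPKM with DMSO and 89.7, 81.9 and 79.8 FPKM with CHIR99021, each library given in the order of replicates 1, 2 and 3. Every CHIR99021 library lay above every DMSO library, and the mean was 1.68-fold higher (log2 change of 0.74 ± 0.09 (SE), adjusted p = 0.00156). The 95% interval of that log2 change was 0.53 to 0.94, and it was the smallest adjusted p among the 40 genes. Ccnb2, a B-type cyclin of CDK1, was measured at 129, 96.1 and 107 FPKM with DMSO and 87.6, 60.5 and 80.1 FPKM with CHIR99021. In both groups replicate 2 was lowest and replicate 1 highest, the groups did not overlap, and Ccnb2 fell by 0.54 ± 0.16 (SE) on the log2 scale, with an adjusted p of 0.0474.

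Cdk1 itself, the kinase that drives entry into mitosis, averaged 53.02 ± 4.298 FPKM with DMSO and 54.2 ± 6.07 FPKM with CHIR99021 (SD, n = 3 per group) with overlapping libraries. Its log2 change was 0.03, with a 95% interval of -0.22 to 0.27. Ccna2, the A-type cyclin of S and G2 phases and the most abundant gene of the group, was measured at 116, 106 and 111 FPKM with DMSO and 103, 93.4 and 102 FPKM with CHIR99021. The groups did not overlap, but the difference missed the threshold (adjusted p = 0.204) and passed with the replicate block (adjusted p = 0.0481). Ccnb1, the other B-type cyclin here, averaged 77.6 ± 3.38 FPKM with DMSO and 72.8 ± 3.87 FPKM with CHIR99021 (adjusted p = 0.468), and Cdc25c, another phosphatase for CDK1, averaged 8.81 ± 2.38 FPKM with DMSO and 8.11 ± 1.03 FPKM with CHIR99021 (adjusted p = 0.81). Both overlapped between groups, and Cdc25c is the most weakly measured of the 40, with Cufflinks confidence limits up to 21.8% of its value away. The Ccnb2 call was lost without DMSO replicate 1 (adjusted p = 0.1203), DMSO replicate 3 (0.107), CHIR99021 replicate 2 (0.109) or CHIR99021 replicate 3 (0.106), while that of Cdc25b held without each library in turn.

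Of the other mitotic kinases 1 of 4 fell (25%, against 13.3% of all tested genes) and 3 did not pass. Nek2 (chr1:191821473-191833049), the kinase that loosens the link between the centrosomes before the spindle forms, was measured at 45.96, 41.1 and 41.3 FPKM with DMSO and 30.2, 30.3 and 29.9 FPKM with CHIR99021. The CHIR99021 libraries were nearly equal to each other and all below the lowest DMSO library, and Nek2 fell by 0.49 ± 0.08 (SE) on the log2 scale, with an adjusted p of 0.00567, a call that held without each library in turn. Aurkb, the catalytic subunit of the chromosomal passenger complex and the most abundant kinase of the group, was measured at 104, 104 and 104 FPKM with DMSO and 99.2, 86.8 and 96.2 FPKM with CHIR99021. Its libraries did not overlap, but the difference missed the threshold (adjusted p = 0.226), also with the replicate block (0.0857). Plk1, which acts on centrosomes, kinetochores and cytokinesis, averaged 90.1 ± 2.798 FPKM with DMSO and 84.8 ± 4.21 FPKM with CHIR99021 with a 95% interval of the log2 change of -0.26 to 0.09. Aurka, the spindle pole kinase, averaged 49.05 ± 6.13 FPKM with DMSO and 50.2 ± 3.42 FPKM with CHIR99021 with an interval of -0.22 to 0.30. For both, libraries of the groups overlapped.

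The spindle checkpoint genes themselves did not pass the test without the replicate block. Within the group of 7 checkpoint and anaphase genes 1 fell (14.3%, against 13.3% of all tested genes). With the block 3 of the 7 were lower (42.9%, against 24.4% of all tested genes). The gene that fell without the block was Cdc20, the activator of the anaphase promoting complex that the checkpoint holds back, measured at 116, 96.6 and 113 FPKM with DMSO and 88.2, 74.9 and 82.4 FPKM with CHIR99021. Its CHIR99021 libraries all lay below the lowest DMSO library, and it fell by 0.40 ± 0.10 (SE) on the log2 scale, with an adjusted p of 0.0287. The call was lost without DMSO replicate 1 (adjusted p = 0.0806), DMSO replicate 3 (0.0933), CHIR99021 replicate 2 (0.0911) or CHIR99021 replicate 3 (0.0947). Ube2c, the ubiquitin-conjugating enzyme of that complex and the most abundant of the 40 genes, was measured at 269, 195 and 224 FPKM with DMSO and 217, 163 and 196 FPKM with CHIR99021. Replicate 1 was highest and replicate 2 lowest in both groups, so the groups overlapped although each CHIR99021 library was below the DMSO library of its number. The adjusted p was 0.259 without and 0.00817 with the replicate block.

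Bub3, which carries checkpoint kinases to kinetochores, averaged 146 ± 13.4 FPKM with DMSO and 118 ± 10.1 FPKM with CHIR99021 without overlap (adjusted p = 0.0693, with the block 0.00618). Without DMSO replicate 2 it passed (adjusted p = 0.0358). The checkpoint kinases Bub1 and Ttk and the kinase-like Bub1b gave log2 changes of 0.03, -0.06 and -0.09, with 95% intervals of -0.15 to 0.22, -0.36 to 0.24 and -0.32 to 0.13. Mad2l1, the protein that binds and inhibits CDC20, averaged 58.6 ± 5.39 FPKM with DMSO and 55.4 ± 1.71 FPKM with CHIR99021 (adjusted p = 0.606). Among these 4 genes every pair of groups overlapped.

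Kinesins were the role with the most calls: 5 of 9 fell (55.6%, against 13.3% of all tested genes) and 4 did not pass. With the replicate block 6 of the 9 were lower (66.7%, against 24.4% of all tested genes). Their share did not stand out there, beside 66.7% of the centromere group and 75% of the spindle assembly group. All 9 log2 changes were below 0, against 54.8% of all tested genes, and their median was -0.38. The change of Kif20b was only -0.0012, and those of Kif20b and Kif14 changed sign in at least 1 alternative. Of the kinesins filed under other lists, Cenpe, Kif15, Kif18a and Kifc1 did not pass limma's test. Their log2 changes were -0.12, -0.06, -0.16 and -0.29 (adjusted p = 0.7496, 0.694, 0.434 and 0.0760), so the share depends on how the lists were drawn. Kif23 (chr9:61917278-61946799), the motor subunit of the centralspindlin complex that organises the spindle midzone, was measured at 47.2, 49.2 and 43.1 FPKM with DMSO and 30.5, 30.1 and 26.1 FPKM with CHIR99021. Its highest CHIR99021 library was well below its lowest DMSO library, the mean was 1.61-fold lower, and Kif23 fell by 0.67 ± 0.10 (SE) on the log2 scale, with an adjusted p of 0.00317. Kif22 (chr7:127027731-127042420), a chromosome-bound motor that pushes chromosome arms toward the spindle equator and the most abundant kinesin of the set, was measured at 58.3, 61.5 and 57.98 FPKM with DMSO and 43.2, 43.9 and 41.95 FPKM with CHIR99021. Libraries within each group were close, the groups were far apart, and Kif22 fell by 0.45 ± 0.07 (SE) on the log2 scale, with an adjusted p of 0.00526. The calls of both held without each library in turn.

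Kif20a, which moves the passenger complex to the midzone, was measured at 35.9, 33.3 and 33.8 FPKM with DMSO and 27.1, 25.4 and 21.2 FPKM with CHIR99021 (log2 change of -0.47 ± 0.11 (SE), adjusted p = 0.0189). CHIR99021 replicate 3 was the lowest of its libraries and the groups did not overlap. Kif11 (chr19:37376403-37421859), the tetrameric motor that pushes the spindle poles apart, was measured at 41.7, 46.6 and 39.9 FPKM with DMSO and 31.7, 33.7 and 30.8 FPKM with CHIR99021 (log2 change of -0.40 ± 0.09 (SE), adjusted p = 0.0183). Here replicate 2 was highest in both groups, again without overlap. Kif2c, which removes tubulin from microtubule ends and corrects wrong attachments, was measured at 18.5, 19.98 and 19.8 FPKM with DMSO and 15.6, 15.8 and 13.96 FPKM with CHIR99021 (log2 change of -0.34 ± 0.09 (SE), adjusted p = 0.0363). All of its CHIR99021 libraries lay below the lowest DMSO library. The Kif11 call was lost without CHIR99021 replicate 1 (adjusted p = 0.0533) or 3 (0.0813), and that of Kif20a without DMSO replicate 1 (0.0546), DMSO replicate 3 (0.0578) or CHIR99021 replicate 3 (0.0628). The Kif2c call was lost whichever library was left out (0.0583 to 0.1402).

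Of the kinesins that did not pass, Kif18b, a motor that limits the length of astral microtubules, came closest, averaging 31.04 ± 2.34 FPKM with DMSO and 23.8 ± 3.32 FPKM with CHIR99021 without overlap (adjusted p = 0.0562, with the block 0.00578). Without CHIR99021 replicate 2 it passed (adjusted p = 0.0309). Kif4, a chromosome-bound motor that also acts at the midzone, averaged 13.7 ± 1.16 FPKM with DMSO and 11.6 ± 1.47 FPKM with CHIR99021 (adjusted p = 0.217). Kif14, which works in cytokinesis, and Kif20b, a midzone motor, were the least abundant kinesins at means of 5.01 and 7.21 FPKM. Their 95% intervals of the log2 change were wide, -0.43 to 0.24 for Kif14 and -0.53 to 0.53 for Kif20b. DMSO replicate 2 of Kif20b stood at 10.4 FPKM against 5.85 and 5.71 FPKM in replicates 1 and 3, and the CHIR99021 libraries had the same order with 6.45, 8.70 and 6.20 FPKM.

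**Figure D3:**
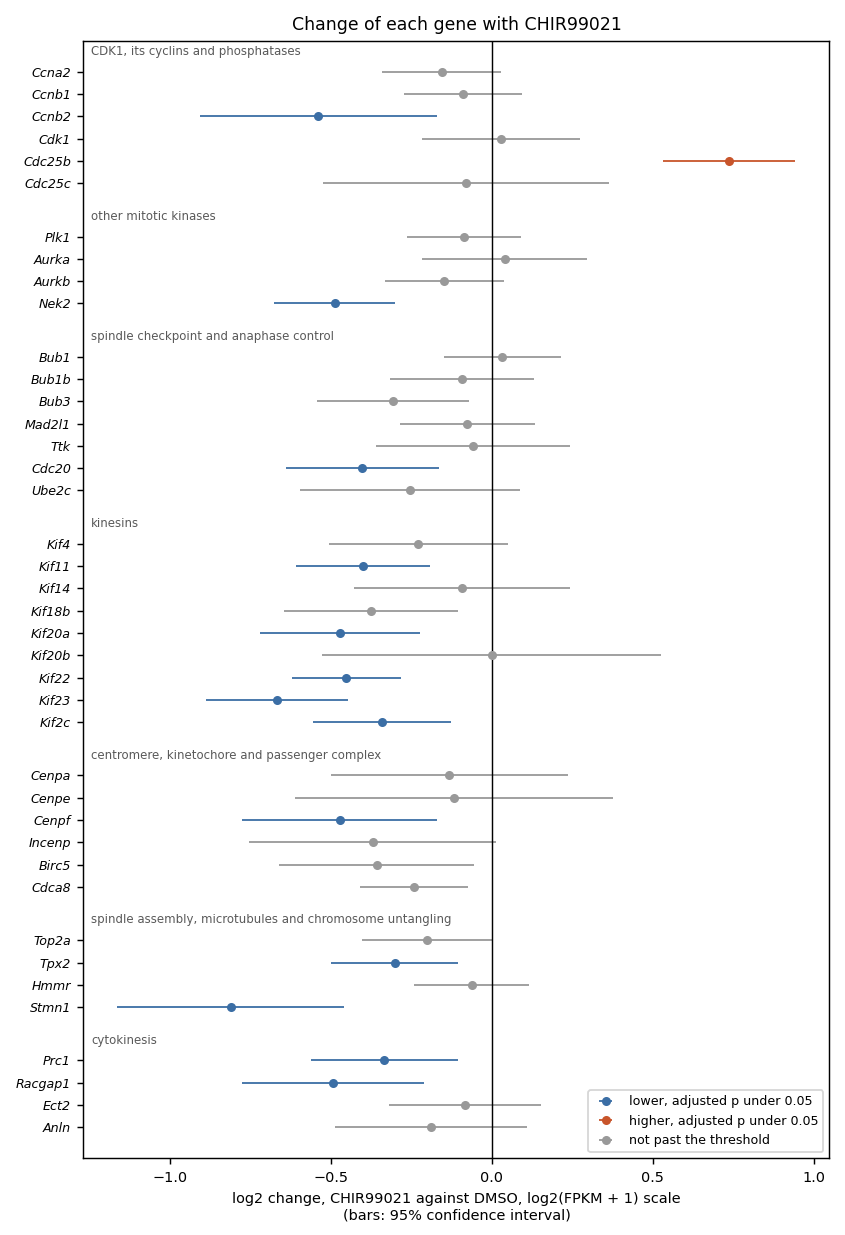
Log2 change of each of the 40 genes with CHIR99021 against DMSO on the log2(FPKM + 1) scale (points) with its 95% confidence interval (bars), 3 libraries per group, coloured by the test's call. Cdc25b is the single gene on the right with an interval clear of 0, and 5 of the 9 kinesins lie to the left.

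At centromeres and kinetochores 1 of 6 genes fell (16.7%, against 13.3% of all tested genes) and 5 did not pass. With the replicate block 4 of the 6 were lower (66.7%, against 24.4% of all tested genes). All 6 log2 changes were below 0, against 54.8% of all tested genes, with a median of -0.30. Cenpf, a large protein of the outer kinetochore and the gene called without the block, was measured at 7.18, 8.65 and 6.505 FPKM with DMSO and 5.35, 4.84 and 4.96 FPKM with CHIR99021. It is expressed at a low level, the groups did not overlap, and it fell by 0.47 ± 0.13 (SE) on the log2 scale, with an adjusted p of 0.0384. No single library could be left out without losing that call, with adjusted p-values from 0.0525 to 0.123. Birc5, better known as survivin, is a passenger complex subunit and the most abundant of the group, measured at 276, 206 and 216 FPKM with DMSO and 195, 162 and 184 FPKM with CHIR99021. DMSO replicate 1 was the highest, the groups did not overlap, and the adjusted p was 0.0906 without and 0.00503 with the replicate block. Incenp, the scaffold of the same complex, averaged 38.4 ± 7.79 FPKM with DMSO and 29.3 ± 4.99 FPKM with CHIR99021 with overlap (adjusted p = 0.153, with the block 0.00397), and Cdca8, its subunit known as borealin, averaged 86.4 ± 3.46 FPKM with DMSO and 72.8 ± 1.28 FPKM with CHIR99021 without overlap (adjusted p = 0.0507, with the block 0.0115). These passenger subunits and the catalytic one, Aurkb, were each lower with CHIR99021 in all 3 pairs. The same held for 28 of the 40 genes and for 37.3% of all tested genes. Cenpa, the histone variant that marks the centromere, averaged 98.1 ± 16.8 FPKM with DMSO and 89.5 ± 15.3 FPKM with CHIR99021 (adjusted p = 0.612), and Cenpe, a kinetochore motor, averaged 9.902 ± 3.43 FPKM with DMSO and 8.78 ± 1.14 FPKM with CHIR99021 (adjusted p = 0.7496). Both overlapped between the groups.

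Spindle assembly and chromosome untangling gave 2 lower genes of 4 (50%, against 13.3% of all tested genes). Stmn1 (chr4:134468320-134473843), stathmin, a small protein that binds free tubulin and destabilises microtubules until it is phosphorylated in mitosis, was measured at 332, 239 and 224 FPKM with DMSO and 161, 137 and 147 FPKM with CHIR99021. DMSO replicate 1 was the highest of all and the spread within DMSO was wide, yet every CHIR99021 library lay below every DMSO library. Stmn1 fell by 0.81 ± 0.15 (SE) on the log2 scale, with an adjusted p of 0.00889, and its 1.78-fold lower mean was the largest change of the 40 genes in this comparison. Tpx2, which activates AURKA on spindle microtubules, was measured at 59.9, 53.4 and 53.5 FPKM with DMSO and 47.6, 43.1 and 43.9 FPKM with CHIR99021 (log2 change of -0.30 ± 0.09 (SE), adjusted p = 0.0412). Its groups did not overlap. The Stmn1 call held without each library in turn, whereas that of Tpx2 was lost whichever library was left out (adjusted p = 0.0516 to 0.143). Top2a, the topoisomerase that untangles sister chromatids, was measured at 198, 220.4 and 187 FPKM with DMSO and 176, 179 and 169 FPKM with CHIR99021. The groups did not overlap, and the adjusted p was 0.142 without and 0.02496 with the replicate block. Hmmr, a microtubule-binding protein of the spindle poles, averaged 42.8 ± 2.02 FPKM with DMSO and 40.9 ± 1.11 FPKM with CHIR99021 with overlap and a 95% interval of the log2 change of -0.24 to 0.12.

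In cytokinesis 2 of 4 genes fell (50%, against 13.3% of all tested genes). Racgap1 (chr15:99620496-99651656), the partner of KIF23 in centralspindlin, was measured at 63.2, 51.3 and 53.3 FPKM with DMSO and 43.7, 40.8 and 33.98 FPKM with CHIR99021. CHIR99021 replicate 3 was the lowest library, the groups did not overlap, and Racgap1 fell by 0.49 ± 0.12 (SE) on the log2 scale, with an adjusted p of 0.0262. Prc1, which bundles the antiparallel microtubules of the midzone, was measured at 51.8, 42.3 and 43.1 FPKM with DMSO and 37.3, 35.5 and 34.9 FPKM with CHIR99021 (log2 change of -0.33 ± 0.10 (SE), adjusted p = 0.0478). Its CHIR99021 libraries were close together and all below DMSO. Ect2, the exchange factor that centralspindlin recruits to switch on RhoA, averaged 15.3 ± 1.45 FPKM with DMSO and 14.3 ± 0.486 FPKM with CHIR99021 (adjusted p = 0.618), and anillin, Anln, a scaffold of the contractile ring, averaged 8.82 ± 1.07 FPKM with DMSO and 7.59 ± 0.736 FPKM with CHIR99021 (adjusted p = 0.336). The Racgap1 call was lost without DMSO replicate 1 (adjusted p = 0.0687), DMSO replicate 3 (0.0625), CHIR99021 replicate 2 (0.0567) or CHIR99021 replicate 3 (0.0938), and that of Prc1 was lost without any library but DMSO replicate 2 (0.0819 to 0.156 among the libraries whose loss ended it).

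Besides Cdc25b, the genes with log2 changes above 0 were Cdk1, Aurka and Bub1, at 0.03, 0.04 and 0.03, none past the threshold. Their 95% intervals reached down to -0.22, -0.22 and -0.15, so falls of the size seen for Kif23 lay outside them. No test of the difference between these genes was made.

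Most of the other genes of the same processes did not pass the test. Lower calls made up 15.2% of the other kinetochore genes, 18.2% of condensin, cohesin and separation genes, 10.5% of the anaphase promoting complex genes, 10.3% of other spindle genes, 14.3% of other CDK1 control genes, 22.2% of G2/M regulators and 5.56% of DNA replication genes, against 13.3% of all tested genes. Most of these shares are near that background and are not results about the lists. Of 33 other kinetochore genes 5 fell, among them Cenpm (23.3 ± 1.64 to 14.3 ± 0.315 FPKM, adjusted p = 0.00267), a subunit of the constitutive centromere network. The microtubule-binding NDC80 complex had 2 of the others, Ndc80 (23.5 ± 1.85 to 15.8 ± 1.71 FPKM, adjusted p = 0.0123) and Spc25 (35.3 ± 3.82 to 24.5 ± 2.93 FPKM, adjusted p = 0.02097), and Ska2 (42.1 ± 3.94 to 30.8 ± 3.14 FPKM, adjusted p = 0.0274) belongs to the SKA complex that tracks microtubule ends. Of 22 condensin, cohesin and separation genes 4 fell: the condensin subunits Ncaph (45.6 ± 1.44 to 33.2 ± 1.04 FPKM, adjusted p = 0.0062), Ncapd2 (83.98 ± 4.22 to 63.9 ± 0.668 FPKM, adjusted p = 0.0102) and Ncaph2 (49.1 ± 2.83 to 38.1 ± 2.11 FPKM, adjusted p = 0.0222) and the cohesin subunit Rad21 (78.1 ± 5.22 to 59.3 ± 2.01 FPKM, adjusted p = 0.0139). Of 19 genes for the anaphase promoting complex and its coregulators 2 fell, the catalytic core subunit Anapc2 (34.2 ± 2.37 to 23.6 ± 0.421 FPKM, adjusted p = 0.00563) and the late mitotic activator Fzr1 (44.7 ± 0.915 to 35.7 ± 2.17 FPKM, adjusted p = 0.0279). The median log2 changes of these 3 lists were -0.10, -0.13 and -0.07, nearer than that of the 40 genes to the -0.04 of all tested genes.

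Among 29 other spindle and microtubule genes 3 fell and 2 rose, with a median of -0.16. The abscission protein Cep55 (41.8 ± 1.91 to 32.8 ± 2.402 FPKM, adjusted p = 0.0293) and the spindle proteins Nusap1 (56.9 ± 7.63 to 38.8 ± 6.802 FPKM, adjusted p = 0.0323) and Ckap2l (21.7 ± 1.88 to 16.9 ± 0.732 FPKM, adjusted p = 0.0423) fell, and the augmin subunit Haus2 (11.6 ± 0.462 to 14.8 ± 0.414 FPKM, adjusted p = 0.0368) rose. Of 14 other CDK1 control genes 2 rose and 2 fell. Cdc25a, the CDC25 phosphatase that also acts at the start of S phase, was measured at 23.4, 23.1 and 22.1 FPKM with DMSO and 31.7, 32.6 and 37.6 FPKM with CHIR99021 (log2 change of 0.55 ± 0.09 (SE), adjusted p = 0.00621), so Cdc25a and Cdc25b both rose without overlap while Cdc25c did not pass. The mitotic kinase Pbk rose (14.2 ± 1.86 to 20.9 ± 3.45 FPKM, adjusted p = 0.03604), and Ensa (40.6 ± 0.839 to 30.3 ± 2.29 FPKM, adjusted p = 0.0139), an inhibitor of the phosphatase that opposes CDK1, and the kinase Melk (15.8 ± 1.06 to 11.6 ± 0.200 FPKM, adjusted p = 0.0183) fell.

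Of 18 transcriptional regulators of G2/M genes 4 fell, with a median of -0.19. They were Rbl2 (10.4 ± 1.19 to 6.92 ± 0.406 FPKM, adjusted p = 0.0205), a pocket protein of the repressive MuvB complex, Tfdp2 (2.27 ± 0.302 to 1.03 ± 0.251 FPKM, adjusted p = 0.0248), a dimer partner of E2F, the NF-Y subunit Nfyc (30.1 ± 1.78 to 24.2 ± 0.945 FPKM, adjusted p = 0.0408) and the MuvB subunit Lin37 (19.6 ± 0.442 to 12.99 ± 3.32 FPKM, adjusted p = 0.0478). Of 36 DNA replication genes 2 fell and 2 rose, with a median of -0.06. The clamp loader subunit Rfc2 (149.6 ± 13.2 to 96.3 ± 5.51 FPKM, adjusted p = 0.00352) and the polymerase subunit Pold1 (52.2 ± 4.27 to 38.4 ± 3.86 FPKM, adjusted p = 0.0214) fell, and the S phase cyclin Ccne1 (30.7 ± 1.48 to 39.4 ± 3.29 FPKM, adjusted p = 0.0334) and the flap nuclease Fen1 (60.4 ± 2.19 to 72.9 ± 2.48 FPKM, adjusted p = 0.0401) rose. Of the 26 genes named from these 7 lists, the calls of Anapc2, Cdc25a, Cenpm, Ncaph, Ndc80 and Rfc2 held without each library in turn, and those of the other 20 were lost without at least 1 library (largest adjusted p = 0.149). With the replicate block the lower calls in the 7 lists, in the order given, were 10, 7, 5, 11, 4, 7 and 8, or 30.3%, 31.8%, 26.3%, 37.9%, 28.6%, 38.9% and 22.2%, against 24.4% of all tested genes. Higher calls with the block were 3 among the kinetochore genes, 1 for the anaphase promoting complex, 5 among spindle and microtubule genes, 2 in CDK1 control, 1 among the regulators and 5 in DNA replication, none of these a larger share than the 18.4% of all tested genes.

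**Figure D4:**
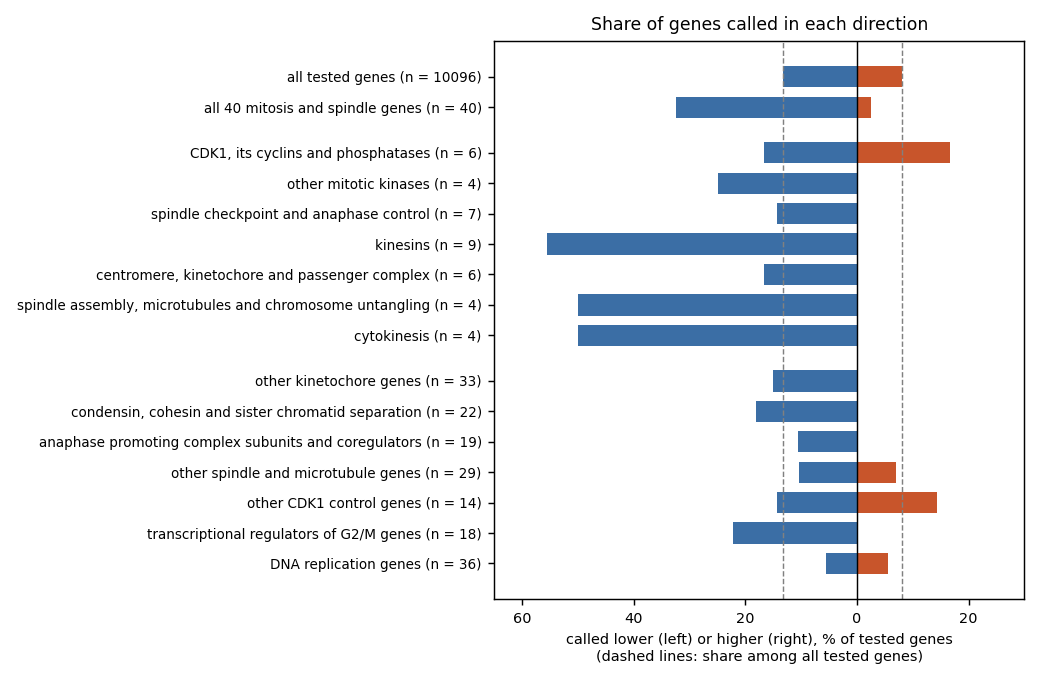
Share of tested genes called lower (to the left) and higher (to the right) with CHIR99021, in percent of each list, for all 10096 tested genes, the 40 genes, their 7 roles and 7 lists of related genes. Dashed lines mark the 13.3% lower and 8.13% higher of all tested genes. In this test, without the replicate block, the kinesins reach furthest to the left.

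Other measures of the same libraries were set beside these results. The B cell markers, 7 of 8 of which fell, summed to 2658 to 3511 FPKM with DMSO and 1347 to 1590 FPKM with CHIR99021, so RNA of this cell type's defining genes was present in every library. Germinal centre B cell markers summed to 129 to 135 and 116 to 125 FPKM. T cell markers, of which Cd3e and Cd8b1 were listed at 0 throughout, summed to 13.3 to 16.4 and 11.8 to 14.0 FPKM, nearly all of it Lck, and myeloid markers, with Cd14 listed at 0, to 6.63 to 8.18 and 2.54 to 7.16 FPKM. Of the 2 myeloid markers tested, Itgam fell (5.34 ± 0.791 to 1.42 ± 0.525 FPKM, adjusted p = 0.00264) and Lyz2 did not pass (adjusted p = 0.696). Fibroblast markers, which the feeder cells could supply, summed to 71.5 to 288 and 52.2 to 223 FPKM, and Col1a1 was measured at 202, 69.2 and 36.2 FPKM with DMSO and 165, 65.3 and 33.3 FPKM with CHIR99021. Col1a2 and Col3a1 had the same order over the replicate numbers in both groups. The other fibroblast markers did not all share it: Thy1, which fell (adjusted p = 0.0278), was measured at 11.02, 9.01 and 20.6 FPKM with DMSO and 4.21, 4.58 and 6.97 FPKM with CHIR99021, and Lum was higher in every CHIR99021 library (0.336 to 1.07 FPKM) than in any DMSO library (0 to 0.0929 FPKM). Without both libraries numbered 1, which held the most collagen RNA, 5 of the 40 genes passed, namely Cdc25b, Nek2, Kif22, Kif23 and Stmn1. In that fit 10% of the 40 genes were called lower, against 7.45% of all tested genes, and 2.5% higher, against 4.39%. These shares are near those of all genes. That alternative was chosen after the data were seen, and the part of RNA from other cells in these results was not tested.

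Library 2 of both groups differed from libraries 1 and 3 by transcript length. Over the 40 genes, the log2 level of replicate 2 minus the mean of replicates 1 and 3 correlated with the log2 length of the longest annotated coding transcript (1060 to 11130 bases) at r = 0.626 (rho = 0.612) in DMSO and r = 0.483 (rho = 0.441) in CHIR99021. Over the 9268 tested genes with a length, r was 0.367 and 0.299. These are descriptions across genes, which share the libraries and are not independent replicates. Stmn1, the shortest at 1060 bases, was low in replicate 2 of both groups (-0.19 in DMSO and -0.16 in CHIR99021), and Cenpe, at 7910 bases, was high there (0.73 and 0.28). Cenpf, the longest at 11130 bases, was high in DMSO (0.30) but not in CHIR99021 (-0.07). The log2 change with CHIR99021 correlated with length at r = 0.174 (rho = 0.171) and with mean level at r = -0.143 (rho = -0.143) over the 40 genes.

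**Figure D5:**
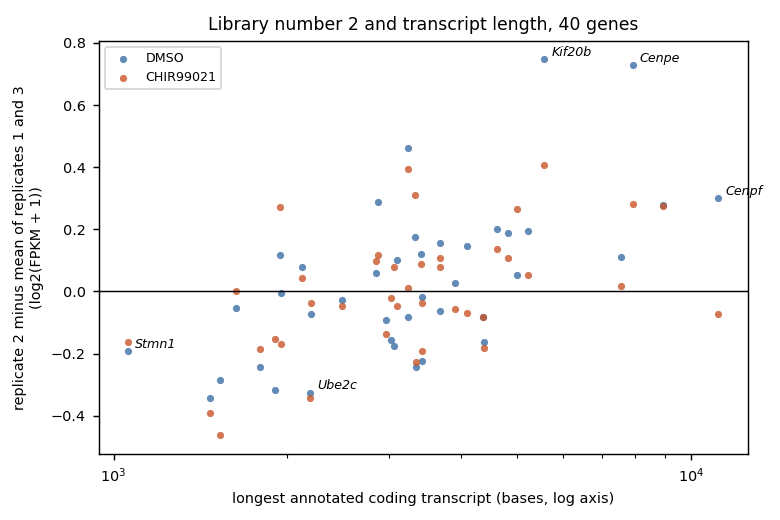
Log2(FPKM + 1) of replicate 2 minus the mean of replicates 1 and 3 against the length of the longest annotated coding transcript (bases, log axis) for the 40 genes, in DMSO (blue) and CHIR99021 (red). Points of both groups climb with length, from Stmn1 at 1060 bases to Kif20b and Cenpe, with wide scatter and with Cenpf near 0 in CHIR99021.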

How the data were processed

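The authors deposited 1 table per library with gene FPKM and its confidence limits, per the file headers. The submitters' processing notes name TopHat2 2.1.1, Cufflinks 2.2.1, cutadapt 1.12 and the build mm10. Which annotation, strand setting and scaling total applied is not given in the labels or notes, so overlapping and antisense genes cannot be separated, and an FPKM depends on the other transcripts of its library. Per the labels, libraries were made with a stranded messenger RNA kit. Summed FPKM per library ran from 527290 to 617449, 13418 to 14429 entries were above 0, and the limits of the median tested gene lay 12.5% to 15.4% from its value. Counts are not in the tables. Relative depth, read from genes whose limits fit 1 fragment, was 1, 1.46 and 1.27 for DMSO and 1.64, 1.29 and 1.12 for CHIR99021 replicates 1, 2 and 3.

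Tables were joined by gene and locus, and genes averaging at least 1 FPKM were tested on log2(FPKM + 1) with limma 3.58.1 (R 4.3.3, eBayes with a variance trend), two-sided, with Benjamini-Hochberg adjustment over 10096 genes and a threshold of 0.05. Log2 changes are on that scale, which understates changes of low genes, and folds are ratios of mean FPKM. The rest was done in Python 3.11.15 (numpy 2.4.6, pandas 2.3.3, matplotlib 3.10.9). The procedure was tested on simulated data.

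The titles number replicates 1 to 3 in both groups. Deviations of equally numbered libraries from their group means correlated at 0.535, 0.490 and 0.517 across genes, so the numbers were taken to pair the libraries. Those of other pairs correlated at -0.352 to -0.140. Deviations within a group cancel out, so these negative values follow from the positive ones and add no support. Identical values made up 0.228% or less in any pair of a DMSO and a CHIR99021 library. Libraries of the same group were not compared in this way.

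The 40 genes, the roles and the lists were chosen with earlier results of these data known. Values in every library are given for called members and for the most abundant and most changed member of each role, and up to 4 called genes are named per related list. Alternatives were the pseudocount, the filter, scaling, the variance trend, the replicate block and leaving out libraries. The block with quantile scaling and leaving out both libraries numbered 1 were added after the data were seen. Promoter windows came from a RefSeq table (GRCm38.p6), and transcript lengths from GENCODE M21. Proteins were not analysed here.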

Additional observations from a re-analysis of the deposited data

How the results depend on the processing

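Cdc25b, Nek2, Kif22, Kif23 and Stmn1 kept their direction and passed the test in all 16 alternatives, with largest adjusted p-values from limma of 0.0151, 0.0416, 0.0367, 0.0236 and 0.0425, while the other 9 called genes lost the call in at least 1. Instead of 14 called genes (13 lower), 22 (21 lower) passed with the replicate block, 9 (8 lower) with no limit on level or no variance trend, 8 (7 lower) with upper-quartile scaling, 5 (4 lower) without both libraries numbered 1, and 5 to 12 (4 to 11 lower) with a single library left out. The replicate block ended no call among the 40 genes. Of the 40 genes, 52.5% were lower with the block, against 24.4% of all tested genes. With no limit on level it was 20% against 6.66%, and with no variance trend 20% against 12.5%. Upper-quartile scaling gave 17.5% against 11.6%, and leaving out both libraries numbered 1 gave 10% against 7.45%. Higher calls in these fits were 2.5% of the 40 genes, against 3.85% to 18.4% of all tested genes. Over all tested genes, 4321 were called with the replicate block, 4460 with the block and quantile normalization, 1181 without both libraries numbered 1, and 1069 to 2038 with 1 library left out, against 2164. The median log2 change of the 40 genes, -0.21, was -0.19 with a pseudocount of 5 FPKM, -0.16 with upper-quartile scaling, -0.14 with quantile normalization, with or without the block, and -0.27 to -0.18 with 1 library left out. Beyond the fewer libraries of the leave-outs and the larger number of genes tested without a limit on level (16287), the cause of these shifts was not tested.

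Of 640 changes of single genes over the alternatives, 23 changed sign, all of genes near 0 that were not called. With quantile normalization, with or without the block, the log2 change became 0.017 for Ttk, 0.072 for Kif20b and 0.0088 for Hmmr. For Kif20b it became 0.0026 with a pseudocount of 0.1 FPKM and 0.047 with upper-quartile scaling. Without both libraries numbered 1 it became 0.11 for Cdc25c and 0.019 for Ttk. With single libraries left out the ranges crossed 0 for Cdk1 (-0.059 to 0.089), Cdc25c (-0.28 to 0.079), Aurka (-0.067 to 0.097), Bub1 (-0.0048 to 0.058), Ttk (-0.16 to 0.039), Kif14 (-0.18 to 0.0011), Kif20b (-0.14 to 0.25) and Cenpe (-0.29 to 0.13). The Cufflinks limits lay 1.98% to 21.8% from the value over the 40 genes, widest for Cdc25c. Cdc25c, at a mean of 8.46 FPKM, is not the least abundant. Kif14 (5.01 FPKM), Cenpf (6.25 FPKM) and Kif20b (7.21 FPKM) had limits of up to 13.2%, 9.68% and 14.2%.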
